A study of Mus musculus with 16 samples.

Results

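MHC class II molecules carry peptides from engulfed material to CD4 T cells. The genes described are Cd74, H2-Aa, H2-Ab1, H2-Eb1, H2-DMa, H2-DMb1 and Ciita, followed through single-cell transcriptomes of mouse mammary tumours. They were chosen by name as the core of the class II pathway, with earlier results of these data known, so their levels are given as a description. They make up 7 of the 18923 genes kept in the HiSeq count tables. End-stage mammary tumours of 2 models, both on the FVB/n background, were dissociated, and live cells were sorted and captured in droplets (Drop-seq). The WB1P mice were WapCre;Brca1F/F;Trp53F/F, and the WB1P-Myc mice were WapCre;Brca1F/F;Trp53F/F;Myc, so both share the conditional Brca1 and Trp53 alleles. Myc stands for the Col1a1invCAG-Myc-IRES-Luc allele, a Cre-dependent Myc transgene knocked in at Col1a1. No treatment was given. Wap-driven Cre acts in mammary epithelium, so the macrophages, fibroblasts and endothelial cells of these tumours are host cells outside the lineage in which Cre acts.

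For each model 4 droplet fractions of 1 sorted sample were sequenced. Tumours of 2 mice per model were used, but the labels tie no fraction or cell to a mouse, so a model is 1 sample here and the spread between mice cannot be seen. No p-value between the models can be given for that reason, and a difference between the models cannot be told apart from a difference between the 2 sorted samples. Barcodes with 450 to 4000 genes and less than 20% mitochondrial counts were kept, which left 1307 WB1P and 3491 WB1P-Myc cells. The median depth was 1724 and 2359 unique molecular identifiers (UMIs) per cell. The tables held 256985 to 4960334 UMIs each, and the first WB1P fraction, the shallowest, gave 65 cells. Kept cells of different libraries shared 1 barcode.

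Background on the pathway helps to order the genes. H2-Aa and H2-Ab1 encode the alpha and beta chains of the I-A class II molecule, and H2-Eb1 encodes the beta chain of I-E. Cd74 is the invariant chain, which escorts newly made class II molecules and blocks their groove. H2-DMa and H2-DMb1 encode chains of H2-DM, which exchanges the remnant of the invariant chain for peptide. Ciita is the transactivator that switches the whole set on. Dendritic cells, B cells and many macrophages express the set constitutively or on activation, and interferon gamma can induce it in other cell types.

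Of the 7 genes, 5 lie together on chromosome 17, within 197134 bases (GRCm38, chr17:34119541-34316674), which is the mouse H2 complex. H2-Ab1 spans chr17:34257689-34269419 on the plus strand and H2-Aa spans chr17:34282744-34287823 on the minus strand. Ciita spans chr16:10480059-10528418. Class II promoters share an X box, bound by the RFX complex, and a Y box, an inverted CCAAT element bound by NF-Y, on which the Ciita protein assembles. The promoter stretches below, from RefSeq on GRCm38.p6, are shown for 3 member genes that were expressed together. Upstream of H2-Eb1 and H2-DMb1 both searched patterns were matched, and upstream of H2-Aa only the Y box core was. Each reads 5′ to 3′ along the gene, with the X box pattern and the Y box core in capitals. The X box pattern searched was AG, any 2 bases, AC, any base and GATG, and the Y box core was ATTGG.
H2-Eb1, chr17:34305770-34305822, plus strand: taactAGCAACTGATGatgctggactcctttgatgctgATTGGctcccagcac
H2-DMb1, chr17:34153091-34153144, plus strand: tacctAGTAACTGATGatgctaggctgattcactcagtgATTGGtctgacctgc
H2-Aa, chr17:34287857-34287901, minus strand: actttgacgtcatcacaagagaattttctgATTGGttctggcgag
Both strands of all 32851 promoter windows of 300 bases were searched. The X box pattern was in 0.968% of them and the Y box core in 37.4%. Both on the same strand, with the Y box core starting 15 to 35 bases after the start of the X box pattern, were in 7 windows (0.0213%), those of H2-Eb1, H2-DMb1 and their neighbour H2-Eb2 among them. The H2-Aa window held the Y box core, 48 bases before the start, without a match to the X box letters. An X box with other letters would be missed by this search. The table held 2 windows for H2-DMa, of which 1 held the Y box core. H2-Ab1, Cd74 and Ciita had no entry in the promoter table.

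The macrophage-like class held 93.5% of all member UMIs with 22.5% of the cells. Clusters were formed with the class II genes left out and named from markers. The 1078 macrophage-like cells (377 WB1P, 701 WB1P-Myc) were led by C1qa, C1qc and Pf4, and 37 of them formed a T or NK-like cluster on finer clustering. Another 292 formed a cluster left unnamed, cluster 3 below, which held 11926 of the 21511 member UMIs of the class. Levels are given as UMIs per 1000000 UMIs of the class (CPM), with exact Poisson 95% intervals that cover counting error only. A UMI stands for 1 captured 3′ end, so counts do not scale with transcript length. Over both models H2-Aa stood at 3984 CPM (3896 to 4073), H2-Ab1 at 3450 CPM (3368 to 3534) and Cd74 at 3099 CPM (3021 to 3178). The chaperone genes were lower, with H2-DMa at 251 CPM and H2-DMb1 at 220.1 CPM. H2-Eb1 stood at 50.4 CPM and Ciita at 7.20 CPM, from 14 UMIs in 11 cells. In these pooled values the intervals of neighbours did not overlap, except those of H2-DMa and H2-DMb1. The order of the 3 leading genes did not hold in WB1P, where Cd74 stood at 6414 CPM (6222 to 6610), between H2-Aa and H2-Ab1, with an interval that overlapped both.

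H2-DMb1 has a near-identical neighbour, H2-DMb2, which was counted with 425 UMIs against 428. Of 298 macrophage-like cells with a UMI of either gene, 195 had a UMI of both, so the split between them is uncertain. The reads were aligned to mm10, which is built from C57BL/6J, while the mice were FVB/n. H2 genes differ between strains, and the effect of mismatches on their counts was not tested.

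The other classes lay far below. The sum of the 7 genes was 11062 CPM in macrophage-like cells and 114 CPM in the 3117 tumour cells. In 1698 epithelial-like cells the sum was 72.6 CPM, in 901 Schwann-like cells 106 CPM and in 518 cells of an unnamed cluster led by the cartilage genes Hapln1, Acan and Col2a1 it was 265 CPM. These 3 classes are called tumour cells because they lay outside the immune, fibroblast-like and endothelial-like classes, and their genotype was not checked. The latter 2 were found in WB1P-Myc alone. The epithelial gene Epcam had a UMI in 58.2% of epithelial-like cells and in 9.46% of the unnamed cluster. In macrophage-like and fibroblast-like cells these shares were 8.53% and 11.4%. Schwann-like cells were named from markers that included Sox10, Mbp, S100b and Erbb3, with a UMI of Sox10 in 55.5% and of Mbp in 68.4% of cells. Mag, Mbp, Cldn11 and Cnp, myelin genes that oligodendrocytes also express, were among the leading genes of the cluster, and a UMI of Col2a1 was found in 71.7% and of the epithelial gene Epcam in 29.4% of its cells. Fibroblast-like cells had 108 CPM, with fractions from 0 to 592 CPM in WB1P and from 19.9 to 40.3 CPM in WB1P-Myc. The fraction at 0 held 2 such cells. Endothelial-like cells had 54.4 CPM, from 13 UMIs. A single WB1P cell held 76 of the 136 member UMIs (55.9%) of the WB1P fibroblast-like class. Ciita was counted once in the tumour cells, once in fibroblast-like cells and never in the 110 endothelial-like cells, where the floor of 3 counts stands at 12.6 CPM. The median depth was 3674 UMIs in Schwann-like and 1482 UMIs in macrophage-like cells.

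**Figure D1:**
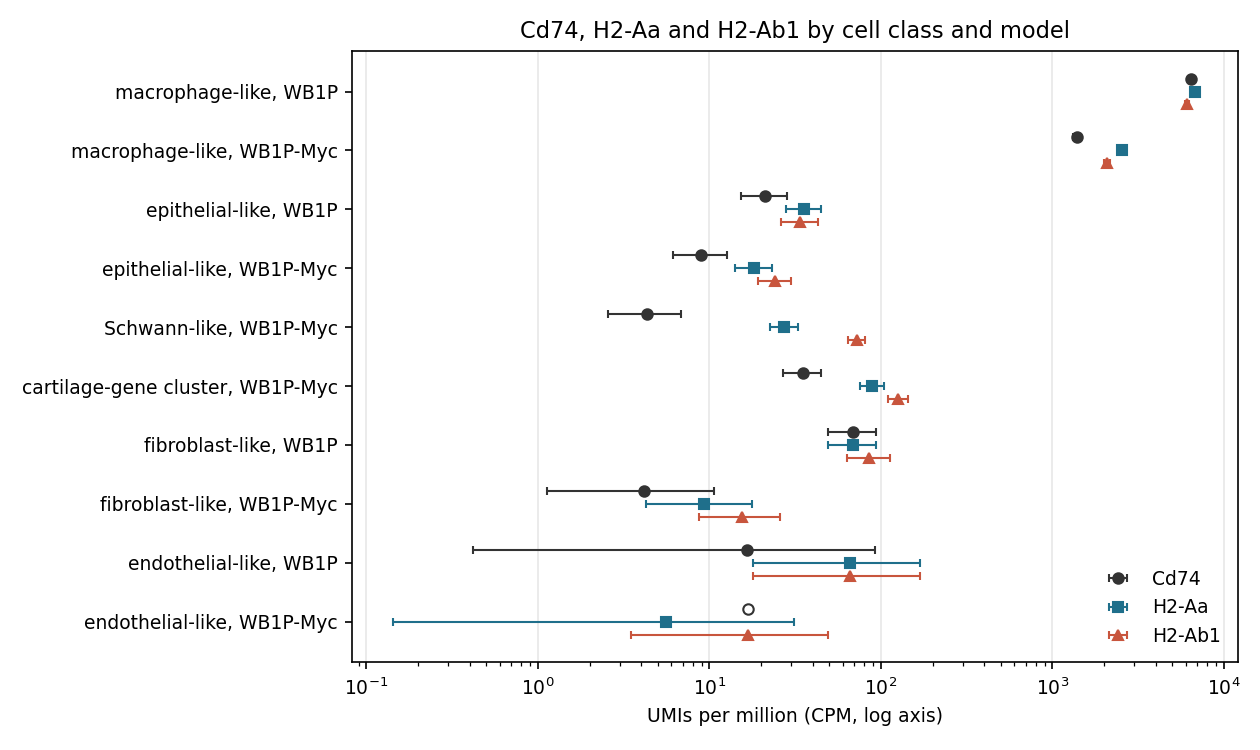
Levels of Cd74 (circles), H2-Aa (squares) and H2-Ab1 (triangles) in CPM on a log axis, by cell class and model, with exact Poisson 95% intervals. The open circle marks 0 UMIs, drawn at the level of 3 counts. Macrophage-like cells lie above 1000 CPM for all 3 genes, and in Schwann-like cells Cd74 (4.34 CPM) lies below H2-Ab1 (72.1 CPM).

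To see which genes varied most like the class II set, the log2(CPM + 10) of each gene with at least 200 counts was correlated with that of the summed members over 35 class by fraction profiles. These profiles share libraries and depth, so the correlation is a description. Of 7934 genes, the 8 outside the pathway and carry-over lists with the highest Pearson r were Il1b (0.959), Rgs1, Cd52, Fcgr3, Ccl6, Cd72, Clec7a and Aif1 (0.938). Il1b encodes interleukin 1 beta, Fcgr3 an Fc receptor, Clec7a the receptor dectin 1 and Aif1 the myeloid marker IBA1. All 8 stood at 258 to 1566 CPM in macrophage-like and 2.42 to 22.1 CPM in tumour cells. The carry-over list holds 12 abundant myeloid genes by which macrophage RNA in other cells can be seen (C1qa, C1qb, C1qc, Tyrobp, Fcer1g, Lyz2, Ctss, Cd68, Csf1r, Laptm5, Ptprc and Apoe). Of these, C1qc reached 0.939 and Tyrobp 0.941, so the set's pattern over classes was close to that of macrophage markers in general.

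Within macrophage-like cells, 6 of the 7 genes were at least 1.5-fold lower in WB1P-Myc than in WB1P, as were 8.67% of all genes with at least 50 counts. H2-Aa stood at 6793 CPM in WB1P (6596 to 6994) and at 2534 CPM in WB1P-Myc (2448 to 2623), a log2 ratio of -1.42 (conditional binomial 95% interval -1.49 to -1.36). In the WB1P fractions 2, 3 and 4 it was 7109, 6769 and 6613 CPM, and in the WB1P-Myc fractions 1 to 4 it was 2607, 2505, 2634 and 2378 CPM. These 2 sets of fractions did not overlap. The first WB1P fraction held 2 macrophage-like cells with 1465 UMIs, so its value of 1365 CPM rests on 2 H2-Aa UMIs.

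H2-Ab1 followed H2-Aa. It stood at 6605, 6223 and 5605 CPM in WB1P fractions 2 to 4, and at 2164, 2163, 2174 and 1812 CPM in the WB1P-Myc fractions. Its log2 ratio was -1.55 (-1.62 to -1.48). H2-DMa had 537, 378 and 409 CPM against 166, 162, 120.4 and 179.8 CPM, a log2 ratio of -1.47 (-1.74 to -1.20). H2-DMb1 had 377, 353 and 463 CPM against 126, 121, 133 and 129 CPM, a log2 ratio of -1.66 (-1.95 to -1.37). For all 3 genes every WB1P fraction, also the first, lay above every WB1P-Myc fraction. The first adds little, as its 2 macrophage-like cells held 6 H2-Ab1 UMIs. Its 683 CPM for H2-DMa and for H2-DMb1 rests on a single UMI of each gene. H2-Eb1, with 98 UMIs in all, had 83.1, 71.4 and 86.8 CPM against 55.3, 29.5, 21.6 and 33.9 CPM, a log2 ratio of -1.19 (-1.80 to -0.59). With each cell thinned to 600 UMIs its log2 ratio was -0.35, short of 1.5-fold, while the other 5 stayed past it.

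Ciita had 2 UMIs in WB1P, both in 1 cell, and 12 in WB1P-Myc, a log2 ratio of 1.63 whose interval reached from -0.54 to 4.83. At this depth no difference in the transactivator was detectable over the whole class.

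Cd74 differed by the largest ratio, from 6414 CPM in WB1P to 1388 CPM in WB1P-Myc, a log2 ratio of -2.21 (-2.29 to -2.13). This value depends on the fraction far more than those of H2-Aa and H2-Ab1. In WB1P fractions 2, 3 and 4 Cd74 stood at 2233, 6256 and 9713 CPM, and in the WB1P-Myc fractions at 959, 1437, 1763 and 1394 CPM. The highest of the 3 WB1P fractions was 4.35 times the lowest, against 1.08 times for H2-Aa and 1.18 times for H2-Ab1. Among the 342 genes with at least 300 counts in these WB1P fractions, the median ratio was 1.253, and only Gm2000 and Gm11942 varied more than Cd74. C1qa varied nearly as much, by 4.19 times. The fractions came from the same sorted sample, and the cause of this spread was not tested. Without the fourth WB1P fraction the log2 ratio of Cd74 was -1.70, and without the second it was -2.52. The sum of the 7 genes had a log2 ratio of -1.67 with Cd74 and of -1.48 without it.

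**Figure D2:**
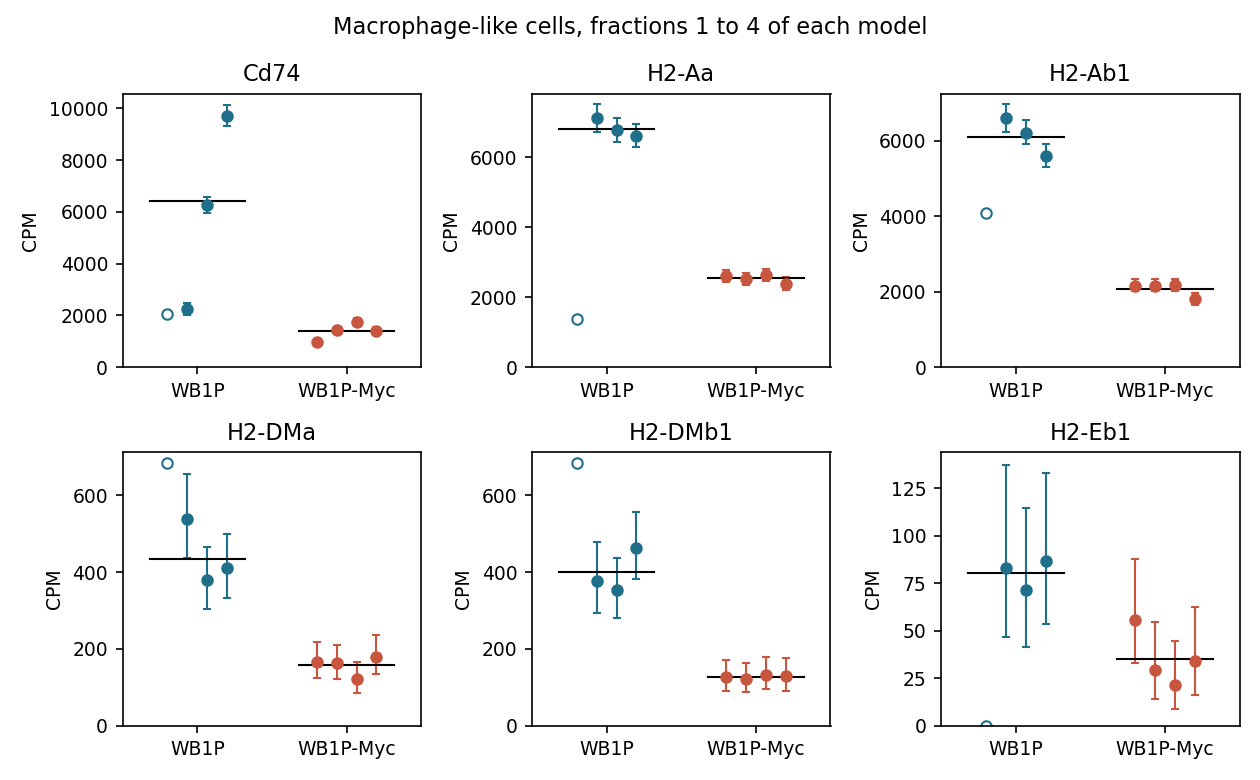
CPM of 6 members in macrophage-like cells for fractions 1 to 4 of each model, from left to right, with exact Poisson 95% intervals. Horizontal lines are the pooled levels, and the open circle is the first WB1P fraction, with 2 cells. The WB1P fractions of Cd74 spread from 2233 to 9713 CPM, while those of H2-Aa lie between 6613 and 7109 CPM.

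The background for these counts is the whole table. Of 5144 genes with at least 50 counts in macrophage-like cells, 8.67% were at least 1.5-fold lower in WB1P-Myc and 17.8% at least 1.5-fold higher, with a median log2 ratio of 0.13. Scaling by TMM in place of total UMIs moved that median to 0.02 and the shares to 11.2% lower and 13.1% higher, and DESeq2 size factors gave 0.04, 10.8% and 13.6%. The summed members had log2 ratios of -1.78 and -1.76 under these scalings. Of the 7 members 6 reached 50 counts, and all 6 were at least 1.5-fold lower, with a median log2 ratio of -1.51. All 4 fractions lay apart in that direction for 4 of the 6 and for 1.36% of all genes. This count takes in the first WB1P fraction, with its 2 macrophage-like cells. Among fractions with at least 20 macrophage-like cells, a limit chosen after the values were seen, all 6 lay apart, against 6.30% of all genes. The members were named with this difference known, so these counts describe it and do not test it.

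The wider pathway did not move as one. Of 28 genes listed for class II regulation, antigen processing and co-stimulation, 27 were in the tables and 17 reached 50 counts. Of those 17, 4 were at least 1.5-fold lower in WB1P-Myc and 2 at least 1.5-fold higher, with a median log2 ratio of -0.21. Over all genes with at least 50 counts, 8.67% were lower and 17.8% higher by this rule. H2-DMb2 was lower, by a log2 ratio of -1.70 (-1.99 to -1.41), and so were H2-Ea-ps, Cd80 and Rfxap, whose log2 ratios of -0.77, -0.90 and -0.76 rest on 57 to 64 UMIs, with an interval for Rfxap that included 0. Creb1, a transcription factor of class II promoters, was higher, at 22.7 CPM in WB1P and 57.7 CPM in WB1P-Myc (log2 ratio 1.35, 0.53 to 2.26). Ctsl, the lysosomal protease cathepsin L, was higher too, at 372 CPM in WB1P and 1215 CPM in WB1P-Myc (log2 ratio 1.71, 1.51 to 1.91). Ctss, the protease cathepsin S that trims the invariant chain, was close in both, at 5376 and 5025 CPM. Ifi30, a lysosomal thiol reductase, had 295 and 255 CPM. Ifngr1, a chain of the interferon gamma receptor, and the interferon response factor gene Irf1 had log2 ratios of -0.25 and 0.30, whose intervals both included 0. Ifng itself was counted once in the class. H2-Oa and H2-Ob, whose product restrains H2-DM, had 9 and 11 UMIs.

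Most general macrophage genes differed less. Of 12 genes of the myeloid carry-over list, 2 were at least 1.5-fold lower in WB1P-Myc (C1qa and C1qc) and 1 was at least 1.5-fold higher (Cd68), with a median log2 ratio of -0.08. The shares over all genes were 8.67% lower and 17.8% higher. All 4 fractions lay lower in WB1P-Myc for 2 of the 12, C1qb and C1qc, and for 1.36% of all genes. Among fractions with at least 20 macrophage-like cells, 3 of the 12 lay lower, with Csf1r added, against 6.30% of all genes. Cd68 lay apart in the other direction by both rules, as did 10.5% and 11.8% of all genes. Tyrobp had 2121 and 1864 CPM and Lyz2 10685 and 12512 CPM. C1qa is among the genes that varied with the fraction.

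**Figure D3:**
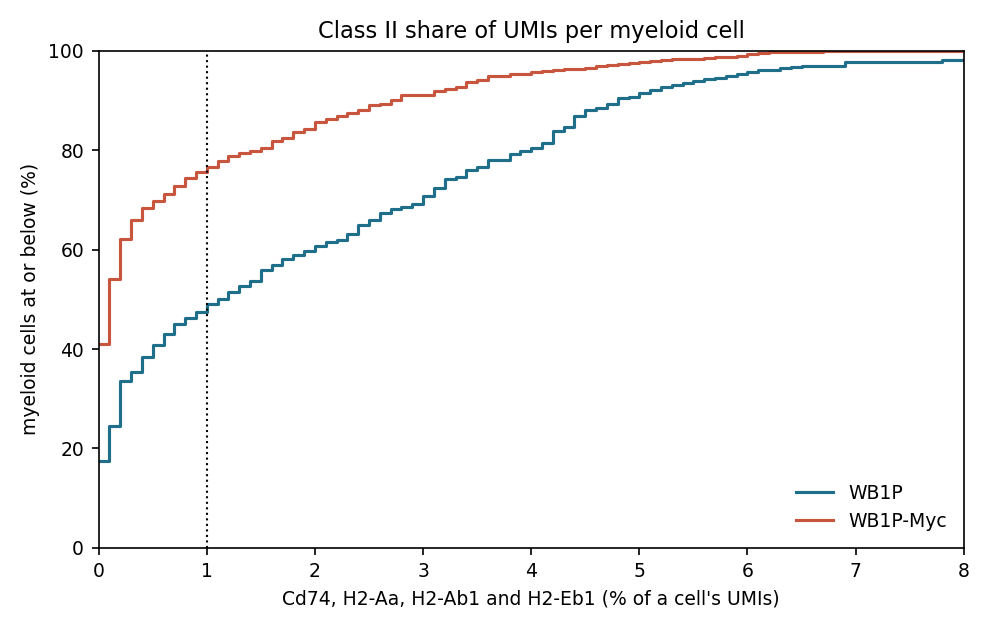
Cumulative share of myeloid cells (vertical axis, %) by the share of their UMIs from Cd74, H2-Aa, H2-Ab1 and H2-Eb1 (horizontal axis, %), for WB1P (367 cells) and WB1P-Myc (674 cells). The dotted line is the 1% cut. At 0, the curves start at 17.4% of WB1P and 40.9% of WB1P-Myc cells.

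The models also differed in the share of cells that carried the set. A myeloid cell was called class II-high where Cd74, H2-Aa, H2-Ab1 and H2-Eb1 made up at least 1% of its UMIs. Of 367 WB1P myeloid cells 187 were class II-high, 51.0% (Clopper-Pearson 95% interval 45.7 to 56.2), and of 674 WB1P-Myc cells 158 were, 23.4% (20.3 to 26.8). The WB1P fractions 2 to 4 gave 49.1%, 50.4% and 53.1%, and the first had 1 class II-high cell of 2. The WB1P-Myc fractions gave 22.0%, 25.9%, 26.3% and 19.5%. The fractions of the models did not overlap, though as fractions of 1 sorted sample per model they carry technical spread only. Cells without a single UMI of the 4 genes made up 17.4% in WB1P and 40.9% in WB1P-Myc. The distribution had no clear gap at the cut, and 22 WB1P and 38 WB1P-Myc cells lay within 0.25 percentage points of it. Median depth was 1561 UMIs in class II-high and 1402 in other WB1P cells, and 1281 and 1549 in WB1P-Myc. When each cell was thinned to 600 UMIs the shares were 52.6% and 24.3%.

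Among class II-high cells the models were close for the I-A chains. H2-Aa stood at 12374 CPM in WB1P and 11944 CPM in WB1P-Myc (log2 ratio -0.05, -0.12 to 0.02), and H2-Ab1 at 11134 and 10005 CPM (-0.15, -0.23 to -0.08). Cd74 remained lower, at 11408 against 6015 CPM (-0.92, -1.01 to -0.83), but in these cells the fractions of the models overlapped. Of the 14 Ciita UMIs in myeloid cells, 13 were in class II-high cells, 11 of them in WB1P-Myc. There the log2 ratio of Ciita was 3.04, with an interval of 0.85 to 6.26 above 0, from 2 UMIs of 1 WB1P cell and 11 UMIs of 9 WB1P-Myc cells. The fractions overlapped for Ciita as well. Selecting cells on these genes draws their levels together, so these values are a description of the selected cells.

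The class II-high cells were spread unevenly over the immune clusters. Cluster 3, led by Il1r2, Ifitm1, Dcstamp and Mmp12 and left unnamed, had the highest share, 60.9% of 192 WB1P cells and 54.0% of 100 WB1P-Myc cells. In cluster 1, monocyte-like with Ccr2, Plac8 and F13a1, the shares were 41.8% of 91 and 30.2% of 199 cells. In cluster 2, macrophage-like with Ms4a7, Trem2 and Mertk, they were 32 of 80 cells and 15.6% of 257 cells. Cluster 4, led by the cell cycle genes Prc1 and Cdca8 and by Pf4, came almost wholly from WB1P-Myc (118 of 122 cells) and had 3.39% class II-high cells there. The intervals of the models overlapped in clusters 1 and 3 and did not overlap in cluster 2. In cluster 3 H2-Aa stood at 8155 CPM in WB1P and 8194 CPM in WB1P-Myc, a log2 ratio of 0.01 (-0.09 to 0.10), while Cd74 stood at 6916 and 3966 CPM (-0.80, -0.93 to -0.67) and H2-DMa at 508 and 327 CPM (-0.64, -1.11 to -0.18). For these 3 genes the fractions of the models overlapped in cluster 3. In cluster 1 the log2 ratios were -0.76 for H2-Aa, -0.79 for H2-Ab1 and -1.26 for Cd74, with intervals below 0. The fractions overlapped there for H2-Aa and H2-Ab1, and for Cd74 they lay apart only without the first WB1P fraction. In cluster 2 H2-Aa stood at 5493 and 2145 CPM (-1.36, -1.48 to -1.23), with the fractions apart.

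The myeloid cells were spread differently over the clusters in the models. Cluster 3 was 52.3% of WB1P and 14.8% of WB1P-Myc myeloid cells, and cluster 2 was 21.8% and 38.1%. When both models were given the pooled make-up of clusters 1 to 4, the class II-high shares were 41.7% in WB1P and 29.0% in WB1P-Myc, so the gap narrowed and did not close. Part of the WB1P share rests on cluster 4, where 0 of 4 WB1P cells were class II-high (up to 60.2%). The class II genes were left out of this clustering.

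**Figure D4:**
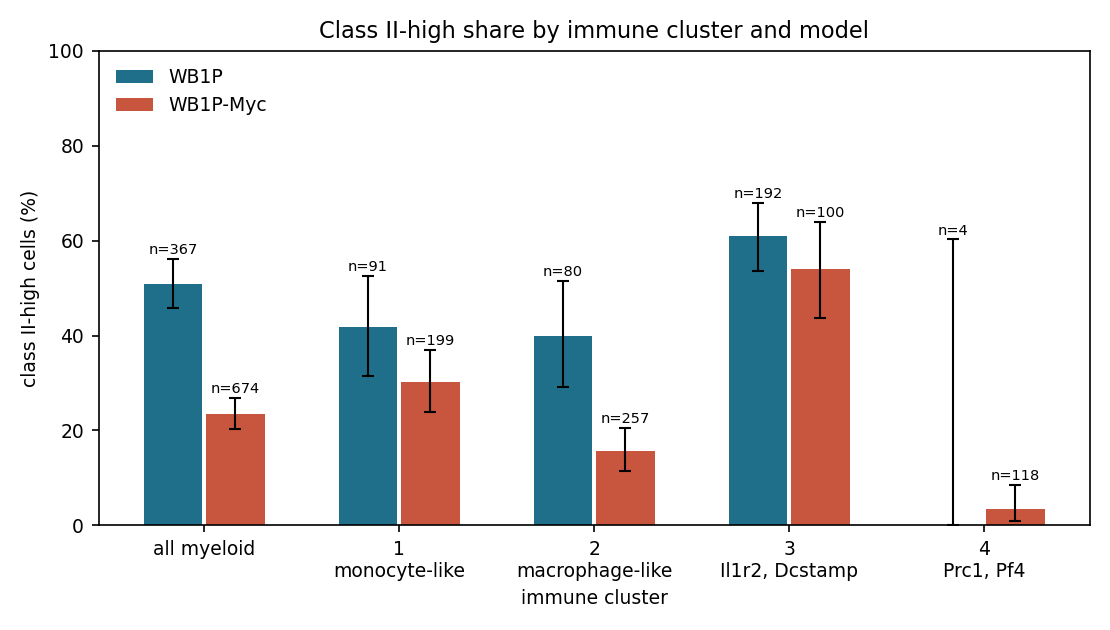
Share of class II-high cells (%) among all myeloid cells and in immune clusters 1 to 4, by model, with Clopper-Pearson 95% intervals and the number of cells. Among the single clusters, intervals are apart in cluster 2, with 32 of 80 cells in WB1P and 15.6% in WB1P-Myc, and in cluster 3 the shares are 60.9% and 54.0%.

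Other genes set the class II-high cells apart from the remaining macrophage-like cells in both models. Of the 5144 genes with at least 50 counts, 3.65% were at least 1.5-fold higher in class II-high cells in both models and 6.49% at least 1.5-fold lower. The 8 highest ratios outside the lists belonged to Ccl17, Il23a, Il1r2, Mgl2, Klrb1b, Pgf, Ccr7 and Mcemp1. The ranking pools the models, so values are given for each. Ccl17, a chemokine of dendritic cells and alternatively activated macrophages, had 136 UMIs in WB1P class II-high cells and 1 in the others, and 129 and 0 in WB1P-Myc. Il1r2, a decoy receptor for interleukin 1, stood at 722 against 104 CPM in WB1P and at 492 against 8.56 CPM in WB1P-Myc. Mgl2, a lectin of dendritic cells and macrophages, stood at 367 against 63.3 CPM in WB1P and at 112 against 1.90 CPM in WB1P-Myc. In both models the pooled counts of these genes were thus far higher in class II-high cells, but they were not spread evenly over cells. In cluster 3, Ccl17 had 263 UMIs in 7.53% of cells and Ccr7 51 UMIs in 4.79%, while Il1r2 had 363 UMIs in 33.2%. Ccr7, which guides dendritic cells to lymph nodes, had 47 UMIs in class II-high cells and 16 in the others, of which 12 were in the T or NK-like cells. Its log2 ratio was 2.80 with the T or NK-like cells and 4.75 without them.

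The 8 lowest ratios belonged to Ctsk, Mmp9, Atp6v0d2, Gpnmb, Gm12892, Fbxo32, Itsn1 and Nkg7. Nkg7 is a gene of T and NK cells, and 49 of its 50 UMIs were in the T or NK-like cells. Ctsk, the osteoclast protease cathepsin K, had 1 UMI in WB1P class II-high cells and 33 in the others, and 0 and 286 in WB1P-Myc. The matrix protease Mmp9 had 0 and 15 UMIs in WB1P, and 1 and 70 in WB1P-Myc. Gpnmb, a gene of lipid-laden macrophages, had a log2 ratio of -0.72 in WB1P, from 4 and 6 UMIs, and of -4.74 in WB1P-Myc, from 2 and 242 UMIs, so its pooled rank rests on WB1P-Myc.

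From the wider pathway list, H2-DMb2, H2-Ea-ps, Cd86 and Ifi30 were at least 1.5-fold higher in both models and Ctsl at least 1.5-fold lower. Ctsl stood at 237 against 519 CPM in WB1P and at 168 against 1446 CPM in WB1P-Myc. None of the 12 carry-over genes passed 1.5-fold in one direction in both models. Over all genes with at least 50 counts, 3.65% were higher and 6.49% lower by this rule. C1qc had log2 ratios of 0.10 in WB1P and -0.30 in WB1P-Myc, and C1qa of -0.06 and -0.47. Cluster 3 held 171 of the 346 class II-high cells and Il1r2 is the leading gene of that cluster, so these genes describe clusters as well as class II level.

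In tumour cells the set was low, and few cells stood out. No WB1P tumour cell of 675 was class II-high, which allows a share of up to 0.545% (Clopper-Pearson), and 2 of 2442 WB1P-Myc tumour cells were (0.0819%, 0.00992 to 0.296). Both lay in the cartilage-gene cluster, had a median of 7980 UMIs and were not tested for doublets. One of them held 122 member UMIs, 25.5% of that cluster's total. Cd74 had a UMI in 3.27% of tumour cells and in 55.2% of macrophage-like cells. After thinning to 600 UMIs these shares were 0.995% and 44.4%. H2-Ab1 had a UMI in 3.08% of thinned tumour cells and 41.5% of thinned macrophage-like cells. C1qa, which tumour cells should lack, had 20 UMIs in the Schwann-like cells, in 1.89% of them. The carry-over genes there ran from 15 UMIs for Csf1r to 782 for Apoe. C1qb had 53, in 4.44% of the cells, and Lyz2 had 341, in 24.3%.

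In WB1P epithelial-like cells H2-Ab1 was counted 1.60 times per Cd74 UMI (1.08 to 2.41), and in barcodes with fewer than 450 genes 1.64 times (1.48 to 1.81). The first value varied with the fraction, at 2.64 without the fourth and 1.09 without the third. WB1P macrophage-like cells had 0.951 (0.910 to 0.993), which was 1.41 without the fourth fraction and 0.740 without the second. The 7 members per carry-over UMI stood at 0.235 in the epithelial-like cells (0.201 to 0.274) and at 0.366 in those barcodes (0.350 to 0.382). In WB1P macrophage-like cells they stood at 0.419 (0.410 to 0.427), and these intervals were all apart. The part of free RNA in these counts was not tested beyond these values. For a subtraction, the free RNA profile was taken from the barcodes with fewer than 450 genes, fraction by fraction. These barcodes can include shallow cells, as a minimum of 200 genes gave 1492 macrophage-like cells in place of 1078. The profile may thus hold RNA of cells as well as free RNA. Subtracting it, scaled by C1qa, C1qb, C1qc and Tyrobp, took the sum of the 7 genes in WB1P tumour cells from 99.5 to 5.78 CPM. For WB1P-Myc the estimate could be made in fractions 3 and 4 only, where the subtraction took the sum from 143 to -18.8 CPM, below 0, so more was taken away than was counted. Among 371 WB1P tumour cells without a UMI of the 12 carry-over genes the sum was 25.1 CPM, and among 920 such WB1P-Myc tumour cells it was 99.8 CPM, against 99.5 and 118 CPM over all tumour cells. The classes differ between these groups, as all WB1P tumour cells were epithelial-like. The 427 WB1P-Myc epithelial-like cells without a carry-over UMI had 29.5 CPM, near the WB1P value. Such Schwann-like and cartilage-gene cells had 153 and 155 CPM.

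Schwann-like cells of the WB1P-Myc tumours had far less Cd74 per H2-Ab1. They held 299 H2-Ab1 UMIs (72.1 CPM, 64.1 to 80.7) and 113 H2-Aa UMIs but 18 Cd74 UMIs, none of them more than 1 per cell. H2-Ab1 per Cd74 was 16.6 (10.3 at the lower limit; 12.7 to 21.8 with each fraction left out), against 1.502 in WB1P-Myc macrophage-like cells and 1.11 in WB1P-Myc barcodes with fewer than 450 genes. H2-Ab1 stood at 79.5, 38.8, 93.2 and 78.9 CPM in fractions 1 to 4, and Cd74 at 1.66, 4.85, 9.20 and 2.88 CPM. All 4 fractions thus had less Cd74 per H2-Ab1 UMI (0.0208 to 0.125) than any macrophage-like fraction (0.338 to 1.73).

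**Figure D5:**
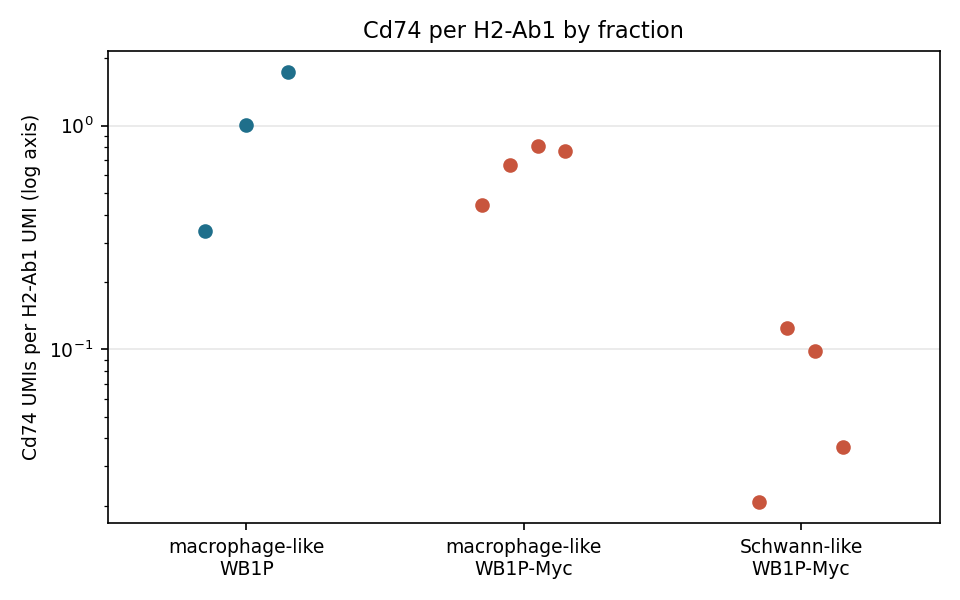
Cd74 UMIs per H2-Ab1 UMI on a log axis, 1 point per fraction with at least 20 H2-Ab1 UMIs. The 4 Schwann-like fractions lie between 0.0208 and 0.125 and the 7 macrophage-like fractions between 0.338 and 1.73.

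The H2-Ab1 UMIs of the Schwann-like cells were concentrated in a few of them. They came from 127 of 901 cells, with up to 14 in a cell, and 30 cells had at least 3. None of those 30 cells had a Cd74 UMI, and 10 of them had no UMI of the carry-over list. H2-Aa had a UMI in 24.4% of the cells with H2-Ab1 and in 5.56% of the others. Cells with at least 3 were deeper, with a median of 5277 UMIs against 3611. Among the 323 Schwann-like cells without any carry-over UMI, 106 H2-Ab1 and 4 Cd74 UMIs were counted, and the sum of the 7 genes was 153 CPM. Ciita had no UMI in Schwann-like cells, where the floor of 3 counts stands at 0.723 CPM, and H2-DMa and H2-DMb1 had 5 and 2 UMIs. The 30 cells were chosen after their values were seen. They were compared with the other Schwann-like cells over 7364 genes outside the members, each with at least 50 counts in the class. Among these genes the 3 highest ratios were those of Aipl1 (387 against 17.9 CPM, 71 UMIs in 19 of the 30 cells), Emilin1 (120 against 9.33 CPM, 22 UMIs in 11 cells) and Gstk1 (142 against 15.1 CPM, 26 UMIs in 12 cells). The cartilage-gene cluster held such cells too. There 20 of 518 cells (3.86%, against 3.33% of Schwann-like cells) had at least 3 H2-Ab1 UMIs, 16 of them without Cd74 and 6 without a carry-over UMI. Its 170 cells without carry-over UMIs held 45 H2-Ab1 and 2 Cd74 UMIs, with a sum of the 7 genes of 155 CPM.

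In the free RNA estimate for WB1P-Myc fractions 3 and 4, free RNA would give 97.4 H2-Ab1 UMIs in Schwann-like cells, where 163 were counted, and 105 Cd74 UMIs, where 11 were counted. For H2-Aa it would give 94.3 UMIs, where 56 were counted. The estimate thus lay below the count for H2-Ab1, above it for H2-Aa and far above it for Cd74. It rests on 49 and 34 UMIs of the scaling genes. The source of the H2-Ab1 UMIs in these cells was not tested. The cartilage-gene cluster had H2-Ab1 at 3.60 per Cd74 UMI (2.71 at the lower limit). Fraction 3 held 41 of its 63 Cd74 UMIs, 28 of them in 1 cell, and without that fraction the ratio was 132 to 22 UMIs. WB1P-Myc epithelial-like cells had 2.69 (1.77 at the lower limit).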

How the data were processed

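Drop-seq counts were deposited by the authors as 1 table of genes by barcodes per droplet fraction and sequencing run. Per the study's methods and the labels they were made with dropseq-tools on mm10 and used with Scanpy. Values are whole UMI counts, not normalized. The 8 HiSeq tables of 4 fractions per model were used. The MiSeq tables hold the same fractions and served as an alternative, and the merged table was not used.

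Counts were normalized to 10000 per cell, log-transformed and clustered in scanpy 1.11.5 (30 components, 20 neighbours, Leiden resolution 0.3), with 12 class II genes left out. Macrophage-like cells were clustered again (40 components, resolution 0.5). A cluster was named where at least 3 markers led it and at least 1 was among its top 10 genes. Doublets were limited by the gene maximum only. Levels are pooled UMI counts per 1000000 (CPM), with exact 95% intervals (scipy 1.17.1) and a floor of 3 counts for a count of 0. Ratios of summed counts carry conditional binomial intervals. The ratio code was tested on simulated data. TMM (edgeR 4.0.16) and DESeq2 1.42.0 scalings were alternatives, beside other filters, clusterings, cuts and left-out fractions.

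The members, lists and thresholds were chosen with earlier results of these data known. Named genes were the members, the pathway list, the myeloid carry-over list and, for likeness and for class II-high cells, the 8 with the most extreme values by the stated rules. Genes of Schwann-like cells with H2-Ab1 were chosen after their values were seen. Coordinates are from GENCODE on GRCm38.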

Additional observations from a re-analysis of the deposited data

Results flagged for a closer look

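Among 21 groups of 4 fractions, 4 had a fraction far from the others, where chance alone gives about 1 in 20. H2-Aa in WB1P macrophage-like cells was 1365 CPM in the first fraction, which held 2 such cells, and 6613 to 7109 CPM in the others. Ciita in WB1P macrophage-like cells was 8.27 CPM in the fourth fraction, from 2 UMIs, and 0 in the others. H2-Ab1 in WB1P-Myc macrophage-like cells was 1812 CPM in the fourth fraction and 2163 to 2174 CPM in the others. H2-Aa in WB1P-Myc Schwann-like cells was 34.5 CPM in the third fraction and 24.8 to 26.2 CPM in the others.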

How the results depend on the processing

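Of 351 values recomputed under other settings, 307 moved by less than the SD between fractions or, where the fractions gave none, stayed within the counting interval, 41 moved by more and 3 changed sign. The settings that leave out 1 fraction are among them. A pooled value without 1 fraction can hardly move by more than that SD, so these settings add to the 307 by design. The log2 ratio of the summed members between the models stayed below 0 in all 21 alternatives, from -1.95 to -1.33. The class II-high share stayed higher in WB1P under each setting applied to both models. In the MiSeq run, WB1P macrophage-like cells had 16345 CPM and 46.2% class II-high cells, and the log2 ratio was -1.33. At resolution 0.6 the WB1P-Myc sum was 5504 CPM, with clustering on the most variable genes its class II-high share was 20%, and with a minimum of 200 genes the WB1P share was 39.6%. Classes gated on markers gave class II-high shares of 47.7% and 18.1%, 177 CPM in WB1P tumour cells, 5123 CPM in WB1P-Myc macrophage-like cells and a log2 ratio of -1.95. Thinning to 600 UMIs gave 7625 CPM in WB1P-Myc and a log2 ratio of -1.36. A cut at 0.5% gave shares of 59.1% and 30.3%, a cut at 2% gave 39.2% and 14.2%, and leaving out Cd74 with a cut at 0.5% gave 53.7% in WB1P. Tumour cells without carry-over UMIs had 25.1 CPM in WB1P, all epithelial-like, and 99.8 CPM in WB1P-Myc, where the epithelial-like cells alone had 29.5 CPM. With free RNA subtracted the sums were 5.78 CPM in WB1P tumour cells, 7074 CPM in WB1P-Myc macrophage-like cells and -18.8 CPM in WB1P-Myc tumour cells, the WB1P-Myc values from fractions 3 and 4 only, where they were 6416 and 143 CPM before, and Cd74 in tumour cells was -12.7 CPM in WB1P and -40.7 CPM in WB1P-Myc. The causes were not tested. Leaving out each fraction in turn gave 18677 to 21448 CPM in WB1P and 6160 to 6457 CPM in WB1P-Myc macrophage-like cells, class II-high shares of 49.8% to 51.7% and 22.5% to 24.8%, tumour cell sums of 75.3 to 136 CPM and 100 to 134 CPM, and log2 ratios of -1.76 to -1.56. Of the alternatives chosen after seeing the data, leaving out T or NK-like cells gave a log2 ratio of -1.66, and leaving out the 2 class II-high tumour cells gave 94.6 CPM in WB1P-Myc tumour cells. Without a minimum of 50 counts, 10.4% of genes were at least 1.5-fold lower and 19.9% at least 1.5-fold higher in WB1P-Myc. No paired analysis was possible because the fractions share only a number and the results come from no test. With 1 sorted sample per model, intervals cover counting error only.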
